A study of Mus musculus with 27 samples.

Results

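Interferon-inducible GTPases were followed in mouse macrophages stimulated once or again through Toll-like receptors (TLRs). The group comprised 9 genes, namely the guanylate binding proteins Gbp2, Gbp3, Gbp5 and Gbp6 and the immunity related GTPases Irgm1, Irgm2, Igtp, Iigp1 and Tgtp1. They were found by the gene name that the array file gives each probe, and 13 of the 55681 non-control probes carried one of these names. Gbp5, Gbp6, Irgm1 and Iigp1 had 2 probes each and the other genes 1. Unless another probe is named, values are those of the probe with the highest mean, given as the normalized log2 intensity that the authors deposited, so that 1 unit is a 2-fold difference. Levels of different probes cannot be set against each other, and only differences between groups are compared.

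Interferons released by a stimulated macrophage bind receptors that signal through JAK kinases and STAT and IRF transcription factors, and the GTPase genes are among the most inducible targets of this pathway. Guanylate binding proteins (GBPs) gather on bacteria and on the vacuoles of parasites, where they help to break the membrane and to expose microbial products to inflammasomes. Immunity related GTPases (IRGs) fall into effectors such as Iigp1 and Tgtp1, which coat and disrupt pathogen vacuoles, and regulators such as Irgm1, Irgm2 and Igtp (Irgm3), which hold the effectors inactive on the membranes of the cell itself.

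Bone marrow cells of female C57BL/6 mice, 6 to 8 weeks old, were differentiated for 7 days in medium conditioned by L929 cells, a source of macrophage colony stimulating factor. Naive cells received no ligand. Acute groups received 1 ligand for 4 h, and re-stimulated groups received it for 24 h, were washed and rested, and then received the same ligand for 4 h. The ligands were lipopolysaccharide (LPS, TLR4, 100 ng/ml), CpG DNA (TLR9, 100 µM in the labels, although the methods give a lower concentration), Pam3CSK4 (TLR2, 100 ng/ml) and Poly(I:C) (TLR3, 10 µg/ml). The study asked how a first exposure through each receptor changes the response to the second. Of 27 arrays, 25 have normalized values, in 9 groups of 3 arrays except LPS re-stimulated (replicates 1 and 2) and Pam3CSK4 acute (replicates 1 and 3). The methods describe replicates once as different mice and once as pools of marrow from several mice, so p-values measure the spread between these arrays, part of which may be technical.

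All groups but acute LPS shared 3 slides, one for each replicate number, scanned on the same day. The acute LPS arrays lay on 3 slides of their own, were scanned on other days and were read with an earlier design file, so slide and stimulus cannot be told apart wherever acute LPS is compared. Of the probes, 42% to 54.3% were well above background on the arrays used, other than naive replicate 3, where 74.6% were. All 7 macrophage markers (Emr1, Csf1r, Cd68, Itgam, Cd14, Fcgr1 and Mertk) were above background on all 25 arrays, as were 7 of 24 markers of other cell types (Elane, Camp, Nkg7, Cd3e, Cd79b, Cd79a and Dcn).

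The 4 GBP genes measured here lie on chromosomes 3 and 5, and the IRG genes on chromosomes 11 and 18. In the array files' build, mm9, the probe of Gbp5 lies at chr3:142184779-142184838, that of Gbp3 at chr3:142236032-142236091 and that of Gbp2 at chr3:142300719-142300778, all on the plus strand. The probe of Gbp6 at chr5:105702128-105702187 matched RefSeq transcripts of Gbp6 and Gbp10, so its signal may come from either gene. On chromosome 11 the probes lie at chr11:48679069-48679128 for Irgm1, chr11:48799587-48799646 for Tgtp1, chr11:58020927-58020986 for Igtp and chr11:58036093-58036152 for Irgm2. The Tgtp1 probe also matched the near-identical Tgtp2 and could not separate them. The second probe of Gbp5 matched no RefSeq transcript in the table used.

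Promoter sequences are shown because the members moved together over the 9 groups and because both families are known targets of the interferon-stimulated response element (ISRE). RefSeq windows of 250 bases before and 50 after the transcription start (build GRCm38.p6) were given for 7 of the 9 genes. The windows were searched before the start, on both strands, for an ISRE core GAAANNGAAA and for the NF-kB site GGGNNTTTCC. Stretches upstream of the start are printed in the direction of the gene, with the matches in capitals.
Gbp5 (chr3:142496754-142496893, plus strand): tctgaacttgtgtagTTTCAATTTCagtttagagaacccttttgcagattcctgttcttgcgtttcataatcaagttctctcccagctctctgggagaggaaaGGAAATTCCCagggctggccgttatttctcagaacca
Gbp3 (chr3:142559916-142560015, plus strand): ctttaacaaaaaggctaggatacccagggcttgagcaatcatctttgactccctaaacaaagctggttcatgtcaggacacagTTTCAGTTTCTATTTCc
Gbp2 (chr3:142620563-142620662, plus strand): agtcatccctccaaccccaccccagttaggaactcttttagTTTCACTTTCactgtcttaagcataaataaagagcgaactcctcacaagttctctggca
Irgm1 (chr11:48871421-48871520, minus strand): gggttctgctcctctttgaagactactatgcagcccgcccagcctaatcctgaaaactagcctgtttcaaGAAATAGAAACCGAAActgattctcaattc
Tgtp1 (chr11:48992247-48992346, minus strand): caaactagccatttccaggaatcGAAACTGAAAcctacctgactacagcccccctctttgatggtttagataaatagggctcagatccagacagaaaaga
Igtp (chr11:58199456-58199555, plus strand): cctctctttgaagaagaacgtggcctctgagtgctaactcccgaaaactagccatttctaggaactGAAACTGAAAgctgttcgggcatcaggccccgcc
Irgm2 (chr11:58214877-58214976, plus strand): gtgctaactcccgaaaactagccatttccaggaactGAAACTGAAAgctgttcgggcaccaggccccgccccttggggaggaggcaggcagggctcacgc

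The ISRE core was found before the start of all 7 genes, against 2.98% of the 32851 windows of 27025 genes. Members were counted by gene and the share by window, so the measures differ. Around the match the stretches of Tgtp1, Igtp and Irgm2 are nearly alike, so the 7 genes are not 7 separate observations. In Gbp3 and Irgm1 there were overlapping copies, at 45 and 39 bases and at 30 and 24 bases before the start. Gbp5 also held the NF-kB site, at 77 bases before the start, which 1.41% of all windows held. A match describes the letters and is not evidence of binding.

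Among the GBPs, Gbp5, which assists inflammasome assembly, had the widest range. Naive macrophages gave 6.61, 7.31 and 7.49, acute LPS 15.31, 15.44 and 15.99, and acute Poly(I:C) 15.55, 15.35 and 14.35. Acute CpG gave 13.83, 13.70 and 15.15 and acute Pam3CSK4 13.42 and 10.23. Every acute array thus lay above every naive array, and the Pam3CSK4 arrays differed from each other by more than any other group's. On re-stimulation Gbp5 was 12.00 and 11.41 with LPS, 12.57, 11.59 and 13.30 with CpG, 7.58, 7.75 and 9.86 with Pam3CSK4, and 13.25, 13.49 and 13.87 with Poly(I:C). All 4 re-stimulated groups lay below the acute group of the same ligand without overlap. The second Gbp5 probe was flatter (its Pearson r with the first over the 25 arrays was 0.784).

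Gbp2, a GBP that targets bacteria and parasite vacuoles, gave 9.11, 9.21 and 11.06 in naive macrophages. It reached 16.11, 15.89 and 16.23 with acute LPS and 16.21, 15.98 and 15.09 with acute Poly(I:C), and stood at 16.16, 16.09 and 15.17 when Poly(I:C) was given again. These 3 groups overlapped, and all their arrays lay above the other 6 groups. With CpG it was 13.68, 13.62 and 14.97 after acute and 12.39, 11.89 and 14.14 after repeated stimulation, with Pam3CSK4 13.44 and 11.88 and then 11.30, 10.50 and 13.43, and with repeated LPS 14.16 and 13.70. Gbp3 had the same order of group means, from 9.51 ± 0.14 (SD, n = 3) in naive macrophages to 15.16 ± 0.16 (SD, n = 3) with acute LPS.

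Gbp6, a close relative of Gbp10, was 6.42, 6.73 and 6.99 in naive macrophages, 12.76, 12.71 and 12.74 with acute LPS and 11.92, 11.79 and 11.22 with acute Poly(I:C). On re-stimulation it was 11.41 and 11.26 with LPS and 12.75, 13.08 and 11.58 with Poly(I:C). Gbp6 was the member with the smallest difference between acute and repeated LPS, and 2 of its 3 Poly(I:C) re-stimulated arrays lay above all acute Poly(I:C) arrays. The CpG arrays, from 8.89 to 11.50, and the Pam3CSK4 arrays, from 7.64 to 9.08, all lay above the naive arrays.

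Among the IRG regulators, Irgm1, a regulator also tied to autophagy, was 13.34, 13.48 and 12.65 in naive macrophages. It was 16.25, 16.07 and 16.42 with acute LPS, 16.45, 16.23 and 15.76 with acute Poly(I:C), and 13.74, 13.74 and 15.46 with acute CpG. With Pam3CSK4 it was 12.78 and 11.73 after acute and 11.02, 11.23 and 11.89 after repeated stimulation. The Pam3CSK4 re-stimulated arrays all lay below all naive arrays. On re-stimulation with the other ligands Irgm1 was 13.79 and 13.60 with LPS, 13.14, 13.17 and 13.43 with CpG, and 15.28, 15.11 and 14.73 with Poly(I:C), so that LPS and CpG left it within 0.54 of the naive mean.

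Igtp, the regulator also named Irgm3, was 11.52, 11.77 and 11.74 in naive macrophages, 16.09, 15.90 and 16.08 with acute LPS and 16.04, 15.93 and 15.62 with acute Poly(I:C). Acute CpG gave 12.55, 13.05 and 15.55, where replicate 3 stood far above the others. Repeated stimulation gave 12.90 and 12.74 with LPS, 13.22, 12.97 and 13.23 with CpG, and 14.71, 14.64 and 14.52 with Poly(I:C). Neither Pam3CSK4 group separated from naive, with values from 11.15 to 11.71. Irgm2 followed the same course, from 11.53 ± 0.38 (SD, n = 3) in naive macrophages to 14.79 ± 0.02 (SD, n = 3) with acute LPS, and its Pam3CSK4 arrays, from 9.97 to 10.88, lay below all naive arrays.

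Among the effectors, Iigp1 (Irga6), which coats parasite vacuoles early, was 7.95, 8.24 and 8.34 in naive macrophages, 12.88, 12.54 and 12.89 with acute LPS and 13.22, 13.19 and 12.10 with acute Poly(I:C). Acute CpG gave 8.59, 8.62 and 11.28, with replicate 3 again high. It was 9.14 and 8.98 with repeated LPS, 7.77, 8.01 and 8.74 with repeated CpG, 7.53, 7.49 and 7.67 with repeated Pam3CSK4 and 10.93, 11.07 and 10.96 with repeated Poly(I:C). The second Iigp1 probe had a lower naive mean, 3.87 with 2 of 3 arrays above background, and means of 7.87 with repeated LPS and 6.67 with repeated CpG. With repeated LPS both probes lay above the naive arrays and differ in the size of the rise. With repeated CpG they differ on whether these cells stood above naive. Tgtp1 (Irgb6, an effector first known from T cells) was well above background on 18 of 25 arrays, on 1 of 3 naive arrays (3.76, 3.53 and 3.44) and on none of the Pam3CSK4 re-stimulated arrays (2.30, 2.21 and 3.22). It reached 8.53, 8.30 and 9.12 with acute LPS, 9.30, 9.04 and 8.60 with acute Poly(I:C) and 7.27, 7.55 and 7.69 with repeated Poly(I:C). The naive array above background was replicate 3, which had the lowest of these naive values (3.44) and where 74.6% of all probes were marked. Changes of Tgtp1 against naive, and against acute Pam3CSK4 where 1 of 2 arrays was above background, thus rest on few measured reference arrays. Their size depends on values near background.

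**Figure D1:**
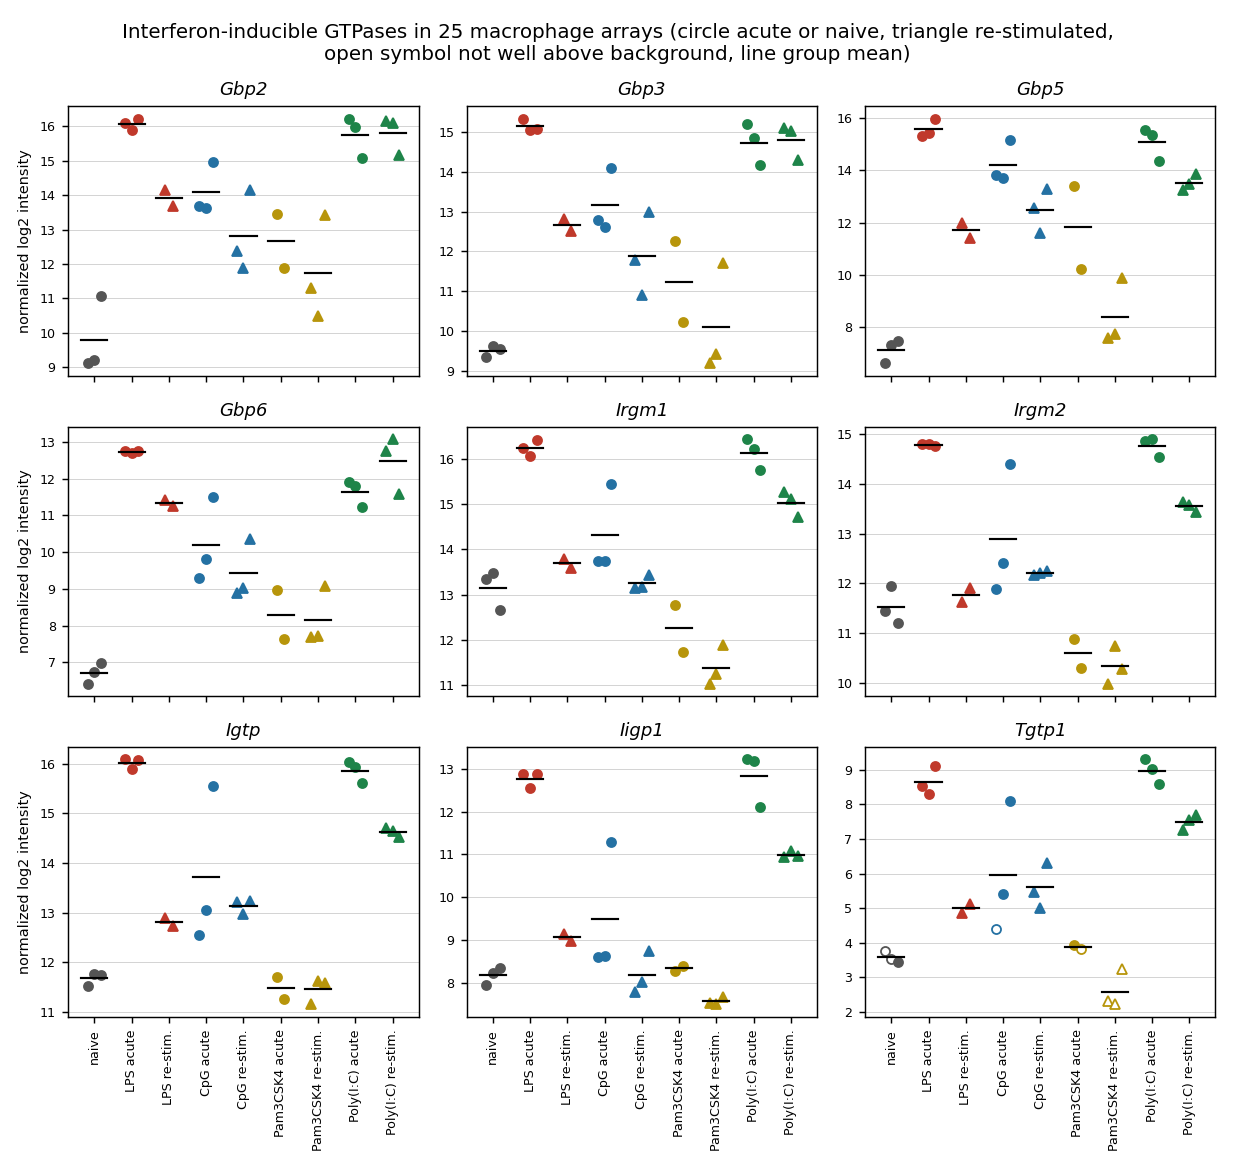
Normalized log2 intensity (y axis) of the 9 GTPase genes on each of the 25 arrays in 9 groups (x axis). Circles are naive or acute arrays, triangles re-stimulated arrays, open symbols values not well above background and lines group means. Acute LPS and acute Poly(I:C) arrays lie above all naive arrays in every panel, in Gbp2, Gbp3 and Gbp6 the acute and re-stimulated Poly(I:C) arrays overlap, and Irgm1, Irgm2, Igtp and Iigp1 have their lowest group mean in Pam3CSK4 re-stimulated arrays.

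Ordered by group mean, 52 of the 72 pairs of neighbouring groups (8 pairs for each gene) overlapped between arrays, so only large steps in the order stood out from the spread. For Irgm1, Irgm2, Igtp, Iigp1 and Tgtp1 the acute LPS and acute Poly(I:C) groups overlapped each other and lay clear of the third group, Poly(I:C) re-stimulated. For Gbp2 and Gbp3 the clear step came below acute LPS and both Poly(I:C) groups. Naive macrophages had the lowest mean for the 4 GBP genes, although on the second Gbp5 probe the naive mean, 8.45, lay above those of LPS re-stimulated (8.17) and Pam3CSK4 re-stimulated macrophages (7.71). For Irgm1, Irgm2, Igtp and Iigp1 the lowest mean was that of Pam3CSK4 re-stimulated macrophages, while the low ranks of Tgtp1 lay at background.

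Acute LPS raised every member. All 13 member probes were called higher (adjusted p under 0.05 and at least 1.5-fold), against 13.2% of the 29930 probes tested, and adjusted p reached at most 0.0153. The change was largest for Gbp5, 8.44 ± 0.31 on the log2 scale (SE) or 348-fold (adjusted p = 0.000159), and smallest for Irgm1, 3.09 ± 0.27 or 8.50-fold (adjusted p = 0.00122). The other GBPs changed by 5.65 to 6.28, and Igtp, Iigp1 and Tgtp1 by 4.35, 4.60 and 5.08. The median over the 9 genes was 5.08 beside -0.01 over all probes tested. In these bulk samples, more cells that express a gene and more RNA per cell cannot be told apart. The macrophage marker sum was 18.73 to 18.86 with acute LPS against 19.15 to 19.21 in naive arrays (Csf1r and Cd68 called lower, Cd14 higher), and the neutrophil markers had a median change of -3.32 with 1 of 5 called lower; their part was not tested.

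Acute Poly(I:C) raised the same 13 probes, against 3.8% of the 28424 probes tested. Gbp5 rose by 7.95 ± 0.40 or 247-fold (adjusted p = 0.00133), Gbp2 by 5.97 ± 0.61, Tgtp1 by 5.40 ± 0.23 and Irgm1 by 2.99 ± 0.30. Both comparisons share the naive arrays, and side by side the changes of Igtp were 4.35 with LPS and 4.18 with Poly(I:C), and those of Irgm2 3.27 and 3.25.

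With acute CpG the 4 GBP members were called higher and no IRG member was, a difference between the families that was not tested. The other genes of these families did not share it. Of those tested, 0 of 5 GBPs and 0 of 9 IRGs were called, with median changes of 1.86 and 1.47. Gbp5 rose by 7.09 ± 0.46 or 136-fold (adjusted p = 0.0034), Gbp2 by 4.30 ± 0.65 (adjusted p = 0.0251), Gbp3 by 3.66 ± 0.42 (adjusted p = 0.0137) and Gbp6 by 3.49 ± 0.58 (adjusted p = 0.0299), which gave 5 of 13 probes called, against 3.09% of the 27953 tested. The changes of the IRGs were 1.16 ± 0.53 for Irgm1, 1.37 ± 0.66 for Irgm2, 2.04 ± 0.77 for Igtp, 1.32 ± 0.74 for Iigp1 and 2.39 ± 0.92 for Tgtp1, with adjusted p from 0.186 to 0.352. The second Iigp1 probe changed by more, 4.12 ± 0.98 (adjusted p = 0.0684), and was not called. The second Gbp5 probe changed by less than the first, 1.455 ± 0.58 (adjusted p = 0.205), overlapped the naive arrays and was not called. Replicate 3 was the highest of the 3 acute CpG arrays for all 9 genes, and its neutrophil marker sum was lower than that of the others, 11.78 against 14.02 and 14.76 (log2 of the summed intensity of Ly6g, Mpo, Elane, Camp and Ngp); the part of this difference in the result was not tested. The count was 3 (Gbp2, Gbp3 and Gbp5) with the replicate number as a block, and 13 in the fit of all groups with slide as a random block. It was 9 under median scaling, and 1 (Gbp5) without naive replicate 1 or 2 or CpG acute replicate 1 or 2. Median scaling also called more of all probes higher, 1015 against 863 with the deposited values. For the other settings the share of all probes is not given.

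Acute Pam3CSK4 gave 0 calls among the 12 member probes tested by limma, where 5 had an unadjusted p under 0.05, and 0% of all 27841 probes were called higher. Gbp5 was 4.69 ± 0.98 higher (adjusted p = 0.288), Gbp2 2.87 ± 0.80 higher (adjusted p = 0.307) and Irgm2 -0.94 ± 0.33 (adjusted p = 0.373), all without overlap with naive arrays. Of the 12 probes tested, 5 lay above the naive arrays without overlap, against 16% of all probes tested. Gbp2 and Gbp5 were called in the fit with slide as a random block and under median scaling, 2 probes in each. Tgtp1 was above background on too few arrays to be tested. The macrophage marker sum was 19.49 and 19.30 in acute Pam3CSK4 arrays against 19.15 to 19.21 in naive arrays, without overlap (0 markers called). Its part in these values was not tested.

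**Figure D2:**
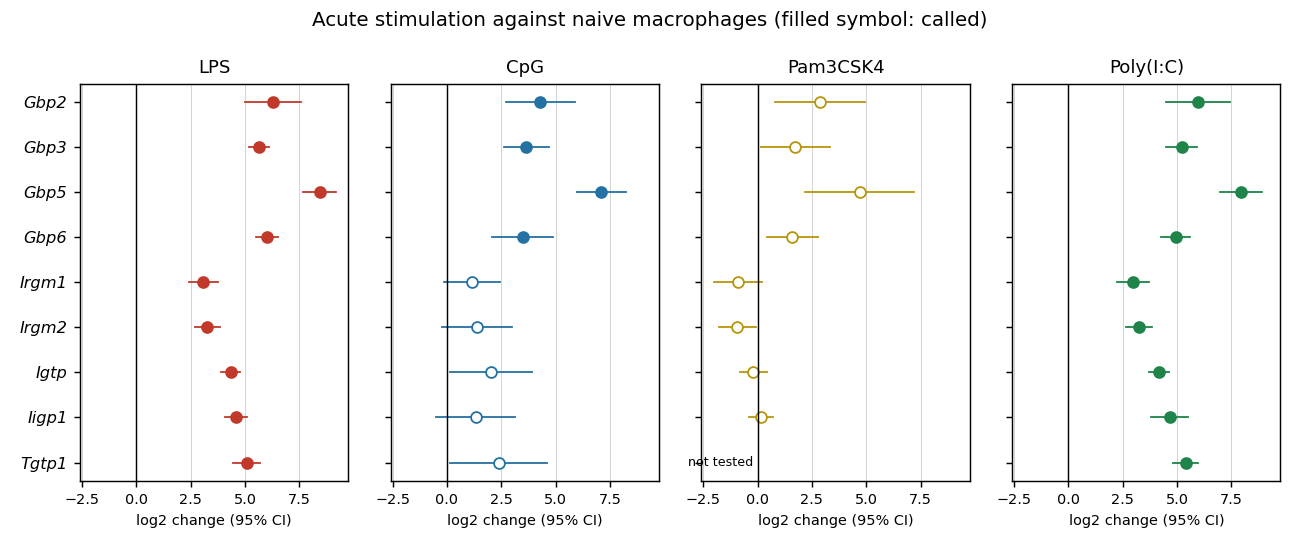
Log2 change of each gene from naive to acutely stimulated macrophages (x axis, points with 95% confidence intervals) for the 4 ligands. Filled points were called. All 9 genes are called with LPS and Poly(I:C), the 4 GBPs with CpG and none with Pam3CSK4, where intervals are wide with 2 arrays.

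Between acute ligands, the 2-group fits called differences of Poly(I:C) from Pam3CSK4 and none from CpG. Against Pam3CSK4, 8 of 13 probes were higher with Poly(I:C), beside 2.13% of the 26657 tested: Tgtp1 by 5.10 ± 0.26, Iigp1 by 4.51 ± 0.40, Igtp by 4.38 ± 0.25, Irgm2 by 4.19 ± 0.26, Irgm1 by 3.89 ± 0.39 and Gbp6 by 3.34 ± 0.46. The count fell to 5 without Pam3CSK4 acute replicate 1 and to 0 without Pam3CSK4 acute replicate 3 or Poly(I:C) acute replicate 1 or 2, and with the low-quality array included it was 0. The macrophage marker sum was 19.30 to 19.49 in acute Pam3CSK4 arrays against 19.08 to 19.21 in acute Poly(I:C) arrays, without overlap. Of 7 macrophage markers, 2 were called higher with Poly(I:C), and their part was not tested. Against CpG, limma called 0 of 13 probes, where 11 had an unadjusted p under 0.05 and 0.173% of the 26533 tested were called in either direction. The differences ran from 0.86 for Gbp5 (95% interval -0.34 to 2.05) to 3.34 for Iigp1 (1.46 to 5.23), so that differences of several fold are within these intervals. Deviations of same-numbered arrays correlated here, and the count was 0 with the replicate number as a block. It was 7, with all 5 IRGs among them, in the fit of all groups with slide as a random block (adjusted p = 0.000187 for Iigp1 and 0.00562 for Irgm1). Without CpG acute replicate 3 the count was 9, from all 5 IRGs, Gbp3 and Gbp6. The share of all probes called in these other settings is not given, so the counts cannot be set against it. CpG against Pam3CSK4 gave 0 calls, where 6 probes had an unadjusted p under 0.05 and 0% of all probes were called, with differences from 1.17 to 2.40.

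Re-stimulation with LPS lowered the members relative to acute LPS. All 13 probes were called lower, against 17% of the 28588 tested, and the count was 13 whichever array was left out, 12 under median scaling, 11 with slide as a random block and 9 with the low-quality array included. Gbp6 was not called in those last 3 settings (adjusted p = 0.0646, 0.124 and 0.0846) nor Gbp2 with slide as a random block (adjusted p = 0.0667). Gbp5 fell by 3.88 on the log2 scale (SE 0.30, adjusted p = 0.000701), Iigp1 by 3.72 (SE 0.21), Tgtp1 by 3.66 (SE 0.29), Igtp by 3.21 (SE 0.19) and Gbp6, the least, by 1.40 (SE 0.19, adjusted p = 0.0033). The acute LPS arrays lay on slides of their own. Their neutrophil marker sum was 11.53 to 12.16 against 13.27 and 13.98 in the re-stimulated arrays. The fibroblast marker sum was 6.54 to 7.76 against 9.52 and 8.90. The macrophage marker sum was 18.73 to 18.86 against 19.25 and 19.31 (2 markers called higher and 2 lower). The B cell marker sum was 8.63 to 9.88 against 8.42 and 7.94. These sums separated the groups, and their part in the fall was not tested.

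On re-stimulation with Poly(I:C), 4 of the 5 IRGs were called lower and Gbp2, Gbp3 and Gbp6 were not. Gbp2 changed by 0.05 (95% interval -0.92 to 1.01), Gbp3 by 0.07 (-0.76 to 0.90) and Gbp6 by 0.83 (-0.20 to 1.85), and the direction for Gbp2 and Gbp3 turned negative when single arrays were left out. The IRGs Iigp1, Tgtp1, Igtp and Irgm2 changed by -1.86 ± 0.33 (adjusted p = 0.0384), -1.48 ± 0.24 (adjusted p = 0.0333), -1.24 ± 0.18 (adjusted p = 0.0275) and -1.23 ± 0.18 (adjusted p = 0.0272). Irgm1 (-1.10 ± 0.25, adjusted p = 0.06) and Gbp5 (-1.54 ± 0.36, adjusted p = 0.0618) lay below acute arrays without overlap and missed the threshold, while the second Gbp5 probe was called (-1.89 ± 0.36, adjusted p = 0.0435). In all, 6 of 13 probes were called lower, against 2.62% of the 27138 tested, and 0 were called without Poly(I:C) acute replicate 1 or 2, without re-stimulated replicate 1 or 2, or without a filter on dim probes. Of the 13 probes, 9 lay below the acute arrays without overlap, against 15.1% of all probes. The difference between GBP and IRG genes within this contrast was not tested. The fibroblast marker sum was 6.69, 6.99 and 8.21 in acute and 8.63, 8.83 and 8.55 in re-stimulated arrays, and the T and NK cell marker sum was 11.74 to 12.23 and 11.35 to 11.41. Both sums separated the groups, and their part in these values was not tested.

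With CpG and Pam3CSK4 no member was called in the 2-group fits. For CpG, limma called 0 of 13 probes, where 2 had an unadjusted p under 0.05 and 1.71% of the 25737 tested were called lower, with changes from -1.74 ± 0.55 (Gbp5, adjusted p = 0.133) to -0.36 ± 0.92 (Tgtp1). With the replicate number as a block 4 probes were called lower, of Gbp3, Gbp5 and Gbp6, and Gbp5 had an adjusted p of 0.0352. Without CpG acute replicate 3 the differences of Irgm2, Igtp and Tgtp1 turned positive, to 0.06, 0.34 and 0.71. For Pam3CSK4, 0 of the 11 probes tested were called, where 4 had an unadjusted p under 0.05 and 0% of all probes were called, and Gbp5 stood at -3.43 ± 1.12 (adjusted p = 0.285).

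**Figure D3:**
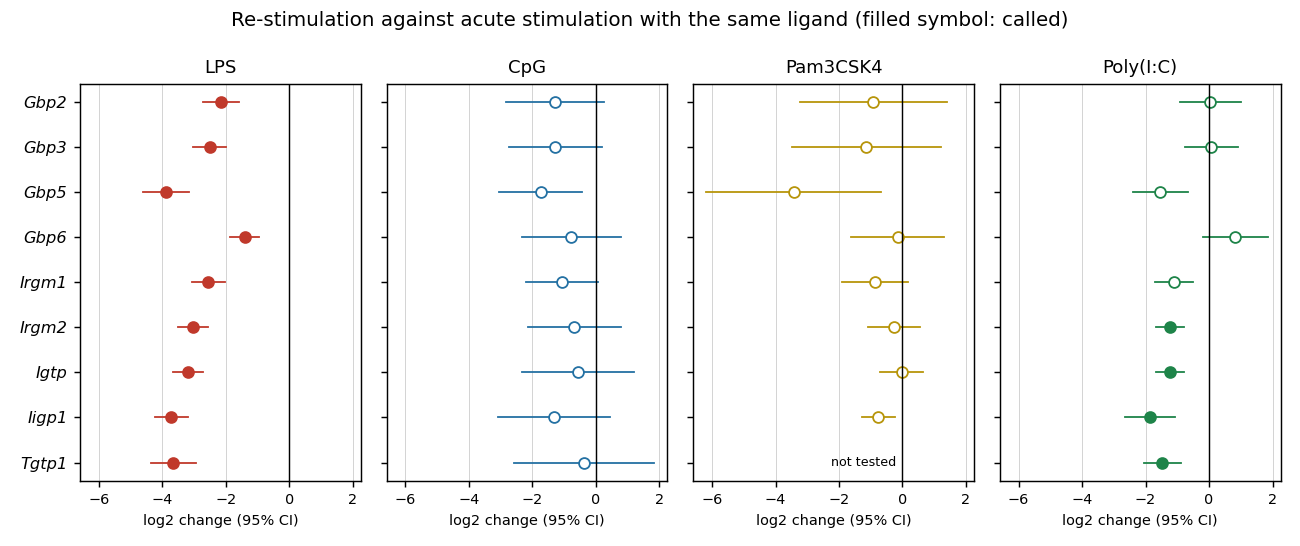
Log2 change from acute to repeated stimulation with the same ligand (x axis, points with 95% confidence intervals), in the panels LPS, CpG, Pam3CSK4 and Poly(I:C). Filled points were called. All 9 genes lie below 0 with LPS, and with Poly(I:C) Gbp2, Gbp3 and Gbp6 lie at or above 0 and the others below.

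The differences between ligands in this change did not pass the test. In limma contrasts within 1 fit of all 9 groups, 0 of 9 genes differed between Poly(I:C) and CpG, Poly(I:C) and Pam3CSK4 or CpG and Pam3CSK4, where 0.0396%, 0.119% and 0.00378% of all probes did. The difference nearest to a call was that of Gbp6 between Poly(I:C) and CpG, 1.61 ± 0.76 (adjusted p = 0.458). Without CpG acute replicate 3, Igtp alone was called in that pair. LPS was not entered because its acute arrays were on other slides.

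Relative to naive macrophages, some or all members were still higher in cells given LPS, CpG or Poly(I:C) again. After Poly(I:C), 12 of 13 probes and all 9 genes were higher, against 4.79% of the 28410 tested, from 1.89 ± 0.29 for Irgm1 to 6.40 ± 0.30 for Gbp5. The second Gbp5 probe was not called (0.63 ± 0.46). Irgm1 lost its call without naive replicate 1 or 2 or Poly(I:C) re-stimulated replicate 1 or 2 (adjusted p = 0.0553 to 0.0831), and Irgm2 without either of the last 2 arrays. In the same arrays the fibroblast marker sum was 8.55 to 8.83 against 6.76 to 8.23 in naive arrays (Dcn called higher) and the T and NK cell marker sum 11.35 to 11.41 against 11.91 to 12.44 (Nkg7 called lower), both without overlap; their part was not tested. After LPS, 8 probes were higher, against 3.28% of the 27912 tested, including Gbp6 by 4.62 ± 0.24, Gbp5 by 4.57 ± 0.36, Gbp2 by 4.14 ± 0.67, Gbp3 by 3.15 ± 0.21, Tgtp1 by 1.42 ± 0.21 and Igtp by 1.14 ± 0.19. The count was 0 without either of the LPS re-stimulated arrays, 4 and 5 without naive replicate 1 or 2, 4 without a filter on dim probes, and 2 (Gbp3 and Gbp5) with the low-quality array included. Irgm1 and Irgm2 stood at 0.54 ± 0.31 and 0.24 ± 0.29, with adjusted p of 0.346 and 0.64. The first Iigp1 probe was 0.88 higher and not called (adjusted p = 0.0784), while the second was called (4.00 ± 0.47, adjusted p = 0.0249). The second Gbp5 probe, at -0.28 ± 0.50, did not share the change of the first. The fibroblast marker sum was 8.90 and 9.52 in these arrays against 6.76 to 8.23 in naive arrays, without overlap. Dcn was called higher (1 of 2 markers tested). The macrophage marker sum, 19.25 and 19.31 against 19.15 to 19.21, did not overlap either. The part of both sums in these values was not tested.

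After repeated CpG, 7 probes were higher than naive, against 6.69% of the 28174 tested, with Gbp5 5.35 ± 0.48, Gbp6 2.71 ± 0.43, Gbp3 2.38 ± 0.51, Tgtp1 2.02 ± 0.35 and Igtp 1.46 ± 0.17 higher. The probes of Iigp1 disagreed, since the second was called (2.80 ± 0.52, adjusted p = 0.0241) and the first was level with naive (adjusted p = 0.997), and the second Gbp5 probe was not called (0.09 ± 0.52). Gbp2, 3.02 ± 0.76 higher, had an adjusted p of 0.0525. The count was 2, 3, 3 and 4 without naive replicate 1, naive replicate 2, CpG re-stimulated replicate 1 and CpG re-stimulated replicate 2. The macrophage marker sum was 18.92 to 19.14 in repeated CpG arrays against 19.15 to 19.21 in naive arrays (2 markers called lower and 1 higher). The T and NK cell marker sum was 11.35 to 11.86 against 11.91 to 12.44. Neither sum overlapped, and their part in these values was not tested. After repeated Pam3CSK4 no member was called higher, where 2.61% of the 27943 tested were, and both Irgm1 probes were called lower, beside 2.74% of all probes. Irgm1 lay -1.78 ± 0.33 below naive (adjusted p = 0.0418) and Irgm2 -1.20 ± 0.30 (adjusted p = 0.0727). For Irgm1 the change was -1.04 under median scaling (adjusted p = 0.487), -1.78 with the replicate block (adjusted p = 0.0928, 0 probes called) and -1.60 to -2.03 with single arrays left out. Without naive replicate 1 or 2 or re-stimulated replicate 1 or 2, 0 probes were called, and 1 was called without re-stimulated replicate 3.

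The interferon pathway was read on the same arrays. Ifnb1, which encodes interferon beta, was 3.13, 2.95 and 2.93 in naive macrophages, 13.99, 13.86 and 12.14 with acute LPS, 12.22, 11.68 and 10.99 with acute Poly(I:C), 9.05, 8.30 and 12.25 with acute CpG and 6.67 and 4.45 with acute Pam3CSK4. CpG acute replicate 3, where Igtp, Iigp1 and Tgtp1 were high, was thus also the highest of its group in Ifnb1. Of the naive Ifnb1 values only that of replicate 3, the lowest, was marked above background. On re-stimulation Ifnb1 was 8.30 and 9.47 with LPS, 10.37, 9.04 and 10.03 with CpG and 13.41, 11.31 and 12.69 with Poly(I:C), while repeated Pam3CSK4 gave 3.55, 3.39 and 4.71, of which 1 was above background. Among the 4 ligands a fall was called for LPS, by 4.45 on the log2 scale (adjusted p = 0.00409), and the change with Pam3CSK4 was -1.68 ± 0.74 (adjusted p = 0.401). Ifng, the gene of interferon gamma, was not above background on 24 of 25 arrays.

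Irf1, a transcription factor that binds the ISRE core, was higher than naive with acute LPS (3.48 ± 0.20), acute CpG (2.71 ± 0.33) and acute Poly(I:C) (3.89 ± 0.33). It fell on re-stimulation with LPS by 3.21, with CpG by 2.15 (adjusted p = 0.031) and with Poly(I:C) by 1.79 (adjusted p = 0.0371). With Pam3CSK4 it was 14.94 and 13.51 after acute and 11.14, 11.44 and 12.46 after repeated stimulation, without overlap but not called. Irf7, the factor that amplifies interferon alpha, moved the other way, rising on re-stimulation by 2.22 ± 0.28 with LPS and 2.05 ± 0.39 with Poly(I:C) (adjusted p = 0.0424). Stat2, a subunit of the factor that binds the ISRE, fell by 1.42 with LPS and was not called with Poly(I:C), where acute arrays were 14.61, 14.52 and 14.42 and re-stimulated arrays 14.26, 14.47 and 14.02. Batf2 rose with acute LPS by 4.82 ± 0.21 and with acute Poly(I:C) by 4.21 ± 0.23. Of 10 transcription factors of the pathway, 5 rose with acute LPS, 1 with CpG, 0 with Pam3CSK4 and 3 with Poly(I:C), beside 13.2%, 3.09%, 0% and 3.8% of all probes. When LPS was repeated 6 fell and 1 rose, beside 17% and 17.2% of all probes.

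Socs1, which blocks JAK kinases, was 7.77 ± 0.29 (SD, n = 3) in naive macrophages. It was called higher in every stimulated group except acute Pam3CSK4, whose arrays, 10.55 and 8.76, still lay above all naive arrays. With Poly(I:C) it was 14.69, 14.68 and 14.02 after acute and 10.34, 10.15 and 12.94 after repeated stimulation, a difference that was not called. Usp18, which restrains the interferon receptor, rose with acute LPS by 3.71 ± 0.17 and with acute Poly(I:C) by 3.39 ± 0.15. Of 6 feedback inhibitors, 4 rose with acute LPS, 2 with CpG, 0 with Pam3CSK4 and 4 with Poly(I:C), Socs3 among them in the 3 responses, beside the same shares of all probes as above. Of 7 receptors and JAK kinases, 2 rose and 2 fell with acute LPS, where 13.2% of all probes rose and 13.2% fell. Jak2 rose with acute LPS, CpG and Poly(I:C) by 2.46 to 2.93 and was still 2.26 to 3.08 above naive in the 4 re-stimulated groups.

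**Figure D4:**
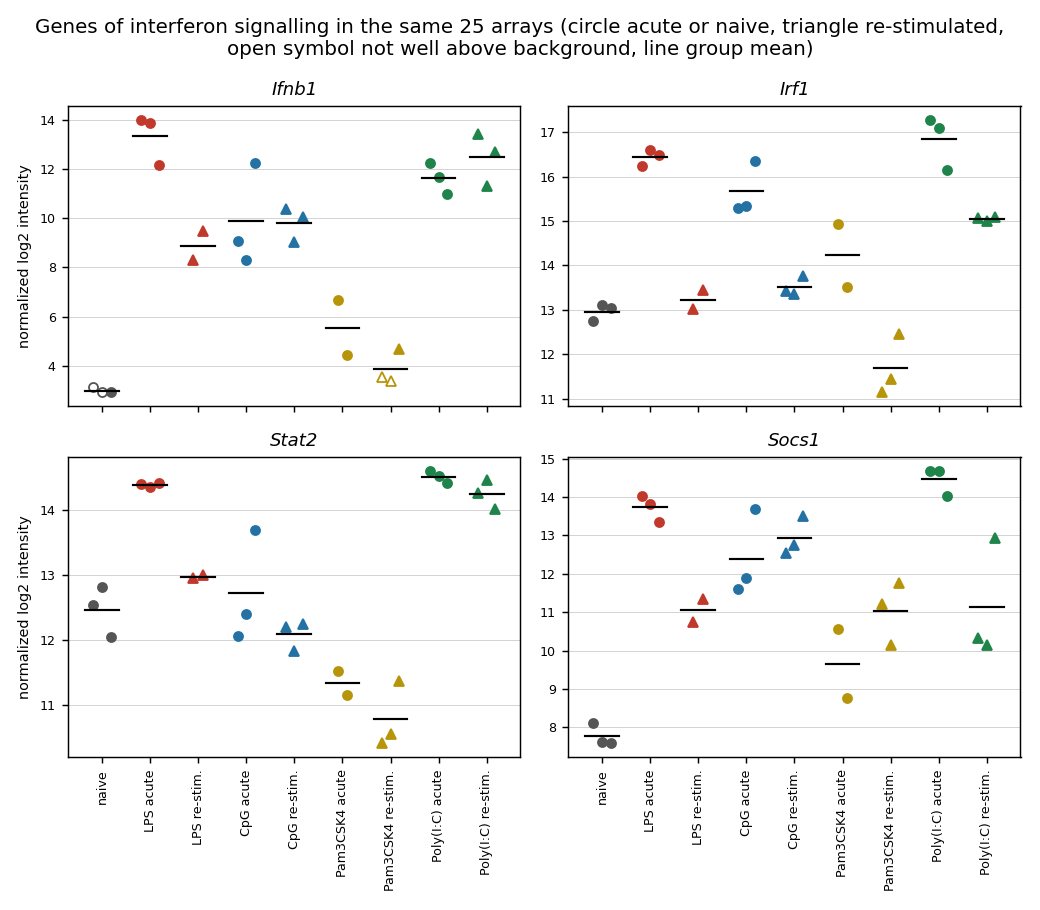
Normalized log2 intensity (y axis) of Ifnb1, Irf1, Stat2 and Socs1 on each of the 25 arrays in 9 groups (x axis), with the symbols of the plot of the GTPases. Ifnb1 stays high on repeated Poly(I:C), from 11.31 to 13.41, while the re-stimulated Irf1 arrays of every ligand lie below its acute arrays.

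The remaining genes of both families were read in the same way. Of the other GBPs 6 were tested with acute LPS, of which 5 rose, and 4 of 6 rose with Poly(I:C), among them Gbp4, Gbp7, Gbp10 and Gbp11 in both, beside 13.2% and 3.8% of all probes. With CpG 0 of 5 and with Pam3CSK4 0 of 4 were called, where 3.09% and 0% of all probes were called higher. On re-stimulation 5 of 6 fell with LPS and 0 of 6 with Poly(I:C), beside 17% and 2.62% of all probes. At shares this small a count of 0 does not set these genes apart. Their median change with Poly(I:C) was -0.30. Gbp7 rose by 5.74 ± 0.31 with acute LPS and by 4.77 ± 0.24 with acute Poly(I:C), and stood 2.25 ± 0.27 and 4.31 ± 0.23 above naive after the second LPS and the second Poly(I:C).

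Of the other IRGs 11 were tested with acute LPS, of which 10 rose and 1 (Irgq) fell, where 13.2% of all probes moved in each direction. With acute Poly(I:C) 6 of 10 rose, beside 3.8% of all probes. On re-stimulation 9 fell and 1 rose with LPS (17% and 17.2% of all probes), and 4 of 10 fell with Poly(I:C) (2.62%), with a median change of -1.22 beside 0.002 over all probes. Gm12250 (Irgb10, an effector that acts on bacteria) fell by 3.88 with LPS and by 1.84 with Poly(I:C) (SE 0.23, adjusted p = 0.0221), and Gm4951 by 3.52 and by 1.28. Tgtp2 was 4.95 ± 0.30 above naive after the second Poly(I:C). The gene 9930111J21Rik1 was lower than naive in cells re-stimulated with LPS, CpG and Pam3CSK4, by -1.73, -1.84 and -2.35.

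Genes that act with the GTPases were also read. Among 8 inflammasome genes, 6 rose with acute LPS, 2 with CpG, 0 with Pam3CSK4 and 5 with Poly(I:C), beside 13.2%, 3.09%, 0% and 3.8% of all probes. Casp4, the sensor of LPS in the cytosol, rose with LPS, CpG and Poly(I:C) by 2.75, 2.59 and 2.94, and Aim2, a sensor of cytosolic DNA, rose with LPS and Poly(I:C) by 2.48 and 2.71 and fell on repetition of each, by 2.30 and 1.5. Nlrp3 rose with CpG by 4.87 ± 0.21, and was 2.16 lower with acute Poly(I:C) than with acute CpG (adjusted p = 0.0483). Zbp1, a sensor of Z-form nucleic acids, rose by 1.07 ± 0.22 when LPS was repeated (adjusted p = 0.0124). Of 13 genes of ubiquitin-like conjugation, which guides GTPases to vacuoles, 1 rose (Trim21, by 2.97 ± 0.23) and 4 fell with acute LPS, where 13.2% of all probes moved in each direction.

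The 9 group means of the members, which come from arrays that share slides, had a higher median correlation within each family than between families. Pearson r of the group means was 0.947 to 0.986 (median 0.967) for the 10 pairs of IRG genes, 0.85 to 0.983 (median 0.946) for the 6 pairs of GBP genes and 0.797 to 0.948 (median 0.863) for the 20 pairs across families. The named genes whose 9 group means were most like the members' mean profile, among 20470 candidates, were Pcgf5 (r = 0.9896), AA960436 (0.9896) and Herc6 (0.9863). These correlations are given without a test.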

How the data were processed

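Gene expression was measured on 1-colour Agilent mouse arrays. The authors deposited scanner intensities of 27 arrays, read with Feature Extraction 10.7.3.1, and log2 values of 25 arrays, made with RMA background correction and quantile normalization. The other 2 arrays, replicate 3 of LPS re-stimulated and replicate 2 of acute Pam3CSK4, were set aside by the authors for low quality. The log2 values were used as deposited, and the intensities gave detection marks and alternatives (values remade from them differed by a median of 0.0355). Groups came from the sample labels, and the number of arrays limits the precision.

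Each comparison was a limma 3.58.1 fit (R 4.3.3, with the package data.table in version 1.17.8) of 2 groups, restricted to probes marked well above background on 2 or more arrays in either group, with Benjamini-Hochberg adjustment over all probes tested. Probes were called at 1.5-fold or more with an adjusted p below 0.05. The script was tested on simulated data. In comparisons with 3 pairs of same-numbered arrays on the shared slides, the deviations of same-numbered arrays correlated (0.117 to 0.537). Each number lay on its own slide, so replicate and slide cannot be told apart. With the replicate number as a block, 10 of the 132 single-gene changes lost a call and 4 gained one, not all of which are named. Alternatives were other normalizations and filters, slide as a block, all 27 arrays, and each array left out. The named genes were the members, Ifnb1, Ifng and Irf1 (1 further gene of this rule is not reported here), up to 4 genes of each pathway list with most calls, and the 5 genes most like the members, of which 2 without a gene annotation are not named. Members and lists were chosen with earlier results of these data known.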

Additional observations from a re-analysis of the deposited data

How the results depend on the processing

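The 132 single-gene changes gave the same direction and call with values remade from the scanner intensities in 132 cases, and in 124 with normexp, 121 without a filter on dim probes, 117 with the replicate block, 110 under median scaling and 104 in the fit with slide as a random block. With slide as a random block the probes called were 13 for naive against CpG acute, 13 for Pam3CSK4 acute against Poly(I:C) acute, 7 for CpG acute against Poly(I:C) acute, 5 for naive against Pam3CSK4 re-stimulated, 2 for naive against Pam3CSK4 acute and 1 for each of the CpG and Pam3CSK4 acute to re-stimulated comparisons. Under median scaling they were 9 for naive against CpG acute, 2 for naive against Pam3CSK4 acute and 1 for naive against Pam3CSK4 re-stimulated (Gbp2, higher). With the replicate block they were 3 for naive against CpG acute, 4 for CpG acute against re-stimulated and 0 for naive against Pam3CSK4 re-stimulated. They were also 0 for Pam3CSK4 acute against Poly(I:C) acute, which had 2 same-numbered pairs. No other count moved by over 1.5 times. Without a filter on dim probes they were 0 for Poly(I:C) acute against re-stimulated, 4 for naive against LPS re-stimulated and 0 for naive against Pam3CSK4 re-stimulated. With all 27 arrays they were 2 for naive against LPS re-stimulated and 0 for Pam3CSK4 acute against Poly(I:C) acute. The share of all probes called is not given beside these counts, nor beside those with single arrays left out.

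With each array left out in turn, the counts ranged from 12 to 13 for acute LPS, 10 to 13 for acute Poly(I:C), 1 to 5 for acute CpG, 0 to 9 for LPS re-stimulated, 2 to 8 for CpG re-stimulated, 0 to 3 for Pam3CSK4 re-stimulated and 9 to 12 for Poly(I:C) re-stimulated (each against naive), 0 to 9 for Poly(I:C) acute against re-stimulated, 0 to 9 for CpG acute against Poly(I:C) acute, 0 to 8 for Pam3CSK4 acute against Poly(I:C) acute, and 0 to 1 for the contrast of Poly(I:C) and CpG. Where a group was left with 1 array, that array was taken to vary like the other group.

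Single-gene changes that turned sign were all small or uncalled. Under median scaling Igtp was 0.0129 (naive against Pam3CSK4 acute) and 0.42 (against Pam3CSK4 re-stimulated), Iigp1 0.80 (naive against CpG re-stimulated, 0.00256 with normexp), and Gbp6, Irgm2 and Igtp 0.21, 0.18 and 0.41 (Pam3CSK4 acute against re-stimulated). In that last comparison Gbp6 was 0.0786 with the replicate block, Igtp 0.00226 with slide as a random block, and all 27 arrays gave 1.00, 1.59 and 1.06 for Gbp6, Irgm2 and Igtp. Irgm2 was -0.28 for naive against LPS re-stimulated with all 27 arrays. With single arrays left out the ranges were -0.43 to 0.0355 (Igtp, naive against Pam3CSK4 acute), -1.19 to 0.0616, -1.16 to 0.34 and -1.15 to 0.71 (Irgm2, Igtp and Tgtp1, CpG acute against re-stimulated), -0.81 to 0.52, -0.55 to 0.0268 and -0.26 to 0.21 (Gbp6, Irgm2 and Igtp, Pam3CSK4 acute against re-stimulated), -0.29 to 0.36 and -0.21 to 0.33 (Gbp2 and Gbp3, Poly(I:C) acute against re-stimulated), -0.16 to 0.25 and -0.29 to 0.20 (Irgm1 and Iigp1, naive against CpG re-stimulated) and -0.21 to 1.05 (Gbp3, naive against Pam3CSK4 re-stimulated).

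The share of higher calls among all probes moved by over 10 percentage points under median scaling in 10 of 12 comparisons, from 49.9% to 67.6% for acute LPS, 54% to 92.3% for acute CpG and 63% to 91.8% for acute Poly(I:C), while the median of all probes shifted by -0.16 to 0.78. The cause was not tested. With 2 or 3 arrays a group, the intervals of CpG and Pam3CSK4 changes span several fold.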

Other observations

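The 2 arrays without deposited log2 values were read after all 27 arrays were normalized together. On LPS re-stimulated replicate 3, 92.3% of probes were well above background, and the members' levels lay below the other 2 arrays of the group for 6 of the 9 genes, above them for 2 and between them for 1. Gbp2 was 14.46 on that array, against 14.13 and 13.68, and Irgm2 was 10.24, against 11.66 and 11.93. On Pam3CSK4 acute replicate 2, 99.9% of probes were well above background, 22.8% of spots were set aside, and 8 of the 9 genes lay below both other arrays, with Gbp3 at 8.18 against 12.27 and 10.30 and Gbp5 at 10.09 against 13.41 and 10.30.

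The neutrophil marker sum was 11.57 to 12.08 on the replicate 3 arrays of the shared slides and 12.56 to 14.76 on replicates 1 and 2. On replicate 3, Gbp2, Gbp3 and Gbp5 were the highest of their group with acute CpG, repeated CpG and repeated Pam3CSK4, and Gbp2 and Gbp3 the lowest with acute and repeated Poly(I:C). The part of the marker sum in these values was not tested.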
